A study of Mus musculus with 12 samples.

Results

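Arg1, Arg2, Nos2, Ass1, Slc7a2, Acod1 and Odc1 encode 6 enzymes and 1 transporter through which myeloid cells take up and spend arginine or make itaconate. They were taken by their symbols from 1 count table for neutrophils and 1 for monocytes. All 7 were found in both tables, among 16805 and 16954 genes, and all 7 passed the filter on low counts in each (13058 and 13294 genes tested).

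RNA-seq was made from spleen cells of wild-type (WT) mice that bore tumors, around a cryo-thermal therapy (CTT), a treatment of the tumor with freezing and heating. Cells labelled neutrophils had been pulled out with an antibody against Ly6G, from untreated tumor-bearing mice (control, n = 3 libraries) and from mice 12 h after CTT (n = 3). Cells labelled monocytes had been pulled out with an antibody against CCR2, 5 days after CTT, from mice with CTT alone (n = 3) and from mice with CTT and anti-Ly6G, an antibody that depletes neutrophils (n = 3). Both monocyte groups thus carry CTT, and monocytes without it were not analysed here. The strain, age and tumor of the mice and the number of mice per library were not given in the sources used here. The titles call the libraries of a group biological replicates, and the p-values speak to the spread among these libraries.

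Arginine is the shared substrate of competing pathways. Arginase 1, in the cytosol, and arginase 2, in mitochondria, split it into urea and ornithine, and ornithine decarboxylase (Odc1) turns ornithine into the first polyamine, putrescine. Inducible nitric oxide synthase (Nos2) instead turns arginine into nitric oxide and citrulline, and argininosuccinate synthase (Ass1) starts the rebuilding of arginine from citrulline. The cationic amino acid transporter encoded by Slc7a2 brings arginine into the cell. Aconitate decarboxylase 1 (Acod1) draws cis-aconitate from the citrate cycle to make itaconate, a metabolite of activated myeloid cells that inhibits succinate dehydrogenase. Arginase 1 and Nos2 are known as means by which myeloid cells in tumor-bearing hosts deprive T cells of arginine.

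On GRCm38 (mm10) all 7 are annotated as protein coding in RefSeq. Arg1 (Entrez gene 11846) lies on chromosome 10 from 24915207 to 24927470, Nos2 (18126) on chromosome 11 from 78920787 to 78960226 and Ass1 (11898) on chromosome 2 from 31470270 to 31520670. Arg2 (11847) and Odc1 (18263) share chromosome 12, from 79130788 to 79156301 and from 17544808 to 17551502. Slc7a2 (11988) lies on chromosome 8 from 40862341 to 40922070. Acod1 (16365) occupies 103047012 to 103056573 of chromosome 14.

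The promoter of Acod1 is shown because Acod1 was the 1 member that passed the test in both comparisons. The table of RefSeq promoters (GRCm38.p6) used here matched 3 of the 7 members. The 250 bases before the Acod1 start, chr14:103046762-103047011 on the plus strand, read as follows, with capitals at the motif matches.
Acod1: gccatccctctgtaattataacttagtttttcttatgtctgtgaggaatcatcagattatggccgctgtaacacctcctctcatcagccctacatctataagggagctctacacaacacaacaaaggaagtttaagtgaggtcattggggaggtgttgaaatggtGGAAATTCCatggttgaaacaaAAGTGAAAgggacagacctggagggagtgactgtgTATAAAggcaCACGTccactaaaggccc
From left to right the capitals mark an A/T-rich NF-kB core (GGAAATTCC, starting 85 bases before the start), an IRF element (AANNGAAA, 63 bases before), a TATA box (TATAAA, 28 bases before) and, on the minus strand, the core of a hypoxia element (ACGTG, 18 bases before). Both strands were searched, the 4 matches do not overlap, and the motifs were chosen with the sequence in view. Among 32851 promoter windows of this length in RefSeq, 0.286% held the NF-kB core, 21.3% the IRF element, 12.4% the TATA box and 16.6% the hypoxia core. An AP-1 site (TGANTCA), a C/EBP site (TTGCNNAA), a STAT site (TTCNNNGAA) and the NF-kB consensus were not found as these letters in this window, which 6.75%, 9.56%, 7.02% and 7.25% of the windows held. A match describes the letters and does not show a bound site.

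The libraries held 30942849 to 35956571 counted reads each. They also held transcripts that mark other cells of the spleen. Over the control neutrophil and CTT monocyte libraries Ly6g ranged from 9.52 to 16.1 CPM (reads per 1000000 counted), so it did not set the labelled neutrophils apart from those monocytes, and no marker that the tables held, of the 9 lists examined, was at 0 in any library. Control replicate 1 of the neutrophils stood apart, with erythroid markers summing to 16126 CPM against 473 to 2754 CPM in the other 5 neutrophil libraries, and cell cycle genes to 5293 CPM against 973 to 1424 CPM. The 8 B cell markers found summed to 2553 to 6448 CPM in control and 5129 to 5726 CPM in CTT neutrophil libraries. The 14 neutrophil markers summed to 4193 to 6158 and 7856 to 12964 CPM there. In the monocyte libraries 7 red pulp macrophage markers summed to 7088 to 11612 CPM (CTT) and 5854 to 6314 CPM (anti-Ly6G). The 10 monocyte and macrophage markers summed to 3571 to 5501 and 4071 to 4726 CPM. Below, neutrophils and monocytes name the selections. CPM values are scaled within each table by TMM (trimmed mean of M-values), and the tables were tested separately.

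**Figure D1:**
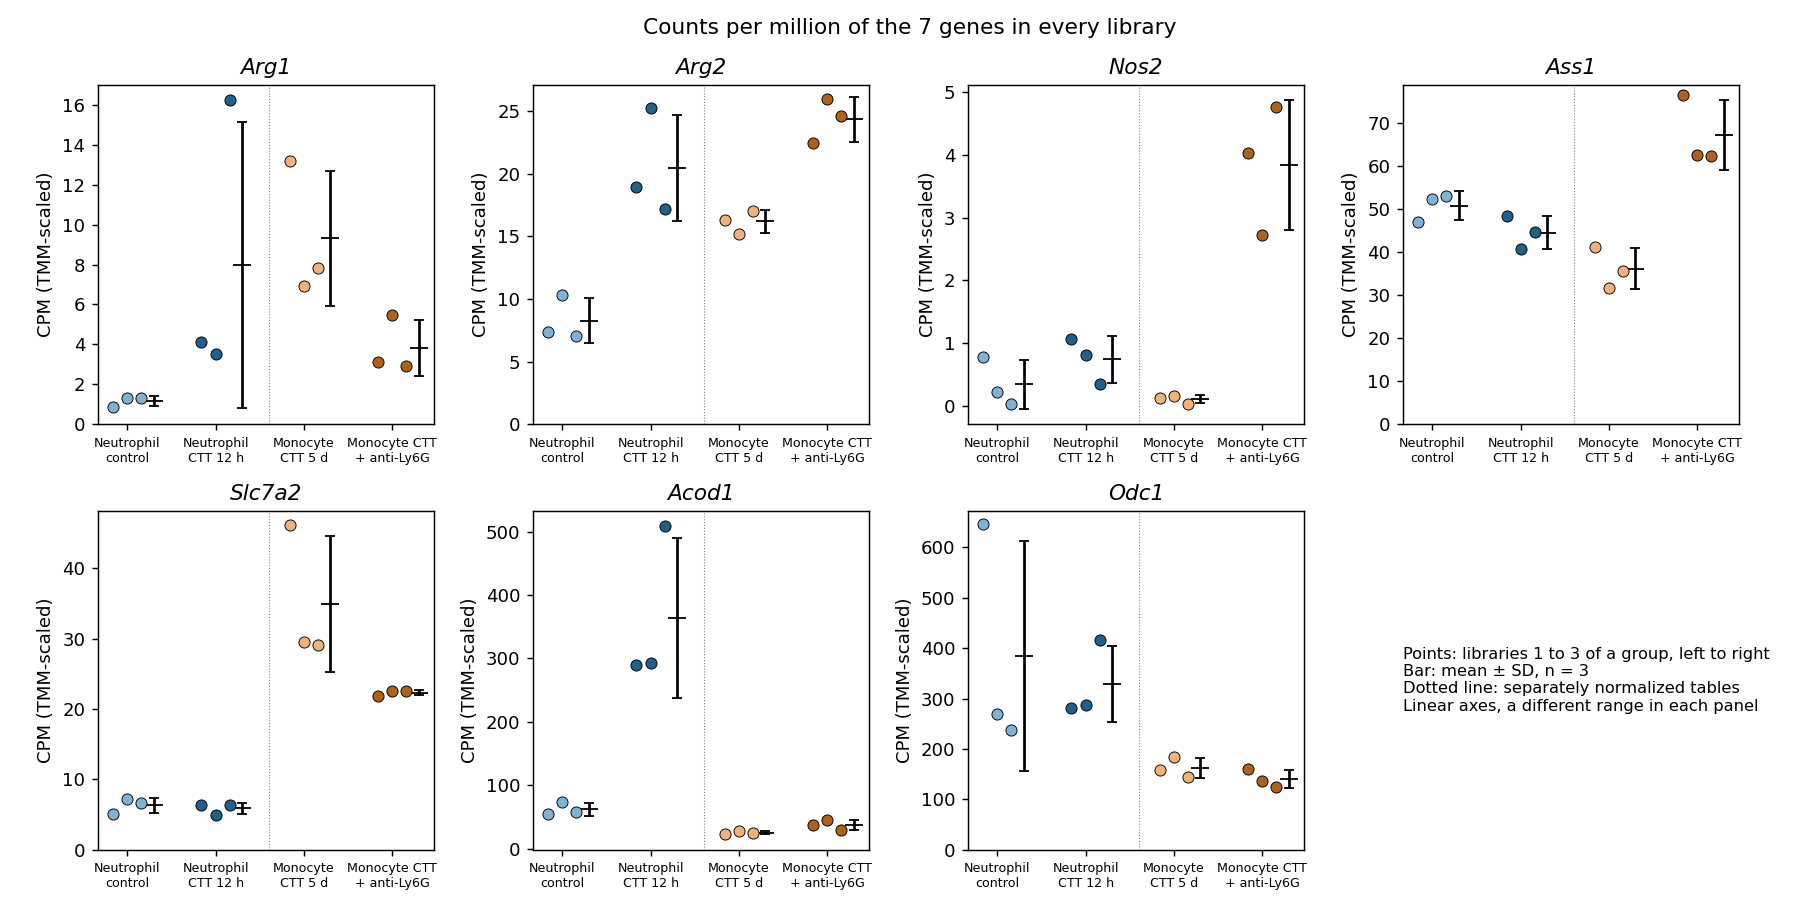
CPM (linear axes, a range of its own in each panel) of the 7 genes in all 12 libraries, with the mean ± SD of each group (n = 3). Acod1 was high in all 3 CTT neutrophil libraries (290 to 509 CPM), and Nos2 in all 3 anti-Ly6G monocyte libraries (2.73 to 4.76 CPM).

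In neutrophils 12 h after CTT, Acod1 rose and the other 6 members did not pass the test. The control libraries held 54.3, 73.1 and 58.5 CPM of Acod1, and the CTT libraries 290, 293 and 509 CPM. The lowest CTT library was thus well above the highest control library, and CTT replicate 3 was the highest. The means were 62.0 ± 9.87 (SD, n = 3) and 364 ± 126 CPM (n = 3), a 5.87-fold rise with a log2 fold change of 2.55 (SE 0.26, edgeR quasi-likelihood test, Benjamini-Hochberg adjusted p = 0.0173). In bulk RNA, more cells of a type and more RNA per cell cannot be told apart. Over all 13058 genes 0.567% rose and 0% fell, against 1 and 0 of the 7 members. Of all genes 749 fell at an unadjusted edgeR p under 0.05 and 106 by DESeq2, and of the members 0 did by either count. Without CTT replicate 1, 2 or 3, or control replicate 2 or 3, the log2 fold change of Acod1 was 2.24 to 2.70 with an edgeR adjusted p of 0.0693 to 0.119, so the call was lost in each of these smaller fits. Without control replicate 1 it was 2.47 (adjusted p = 0.00683).

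The arginase genes were higher after CTT in every library but missed the threshold. Arg1 read 0.855, 1.28 and 1.29 CPM in control libraries and 4.14, 3.50 and 16.2 CPM after CTT. The groups did not overlap, yet CTT replicate 3 alone held most of the CTT counts (523 of 780), and the SD after CTT (7.18 CPM) was nearly as large as the mean (7.96 CPM). The log2 fold change of Arg1 was 2.80 (SE 0.65, edgeR adjusted p = 0.156), and 1.74 (adjusted p = 0.264) without CTT replicate 3. Arg2 read 7.39, 10.4 and 7.05 CPM in control libraries and 18.9, 25.3 and 17.2 CPM after CTT. The groups did not overlap here either, and CTT replicate 3, the highest for Arg1, was the lowest. The log2 fold change of Arg2 was 1.31 (SE 0.23, edgeR adjusted p = 0.0805), and 1.24 without control replicate 1, where it passed (adjusted p = 0.0398). DESeq2 called both arginase genes with all 6 libraries (adjusted p = 0.000194 for Arg1 and 5.61e-05 for Arg2).

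The genes of nitric oxide synthesis and arginine supply did not pass in neutrophils, and Nos2 was barely detected. Nos2 had 27, 7 and 1 counts in control libraries and 36, 27 and 11 after CTT. The groups overlapped, since control replicate 1 matched CTT replicate 2 in counts, and the log2 fold change was 1.11 (SE 0.93, edgeR adjusted p = 0.565). It moved to 2.57 without control replicate 1 and to 0.57 without control replicate 3, and passed in neither. Ass1 read 46.9 to 53.1 CPM in control and 40.6 to 48.4 CPM in CTT libraries, which overlapped (−0.19, SE 0.13, edgeR adjusted p = 0.484). Slc7a2 was low in all neutrophil libraries, at 5.13 to 7.16 and 4.99 to 6.33 CPM (−0.10, SE 0.22, edgeR adjusted p = 0.84).

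Odc1, which feeds polyamine synthesis, read 647, 269 and 237 CPM in control libraries and 282, 288 and 416 CPM after CTT. Control replicate 1, the library rich in erythroid and cell cycle transcripts, held the highest value, and the other 2 control libraries were below all CTT libraries. The log2 fold change was −0.22 (SE 0.39, edgeR adjusted p = 0.79) with that library and 0.39 (adjusted p = 0.338) without it, so no direction was established.

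In all, 3 of the 7 members (Acod1, Arg1 and Arg2) had all CTT libraries above all control libraries and 0 had all below, where 13.6% and 11.0% of all tested genes did. Summed markers moved beside them. The 14 neutrophil markers summed to 4193 to 6158 CPM in control and 7856 to 12964 CPM in CTT libraries, with CTT replicate 3 the highest. The ratio of means was 1.95. Of the 14 markers 2 rose in the edgeR test, where 0.567% of all tested genes did. The part of these markers in the Acod1 and arginase values was not tested.

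With anti-Ly6G, the CCR2-selected cells had more Nos2, Ass1, Arg2 and Acod1 RNA and less Arg1 and Slc7a2 RNA, while Odc1 did not pass the test. Thus 4 of the 7 members rose and 2 fell, where 10.2% of all 13294 tested genes rose and 5.12% fell. Each of the 4 had all 3 anti-Ly6G libraries above all 3 CTT libraries and each of the 2 had them all below, which 20.6% and 15.4% of tested genes showed.

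**Figure D2:**
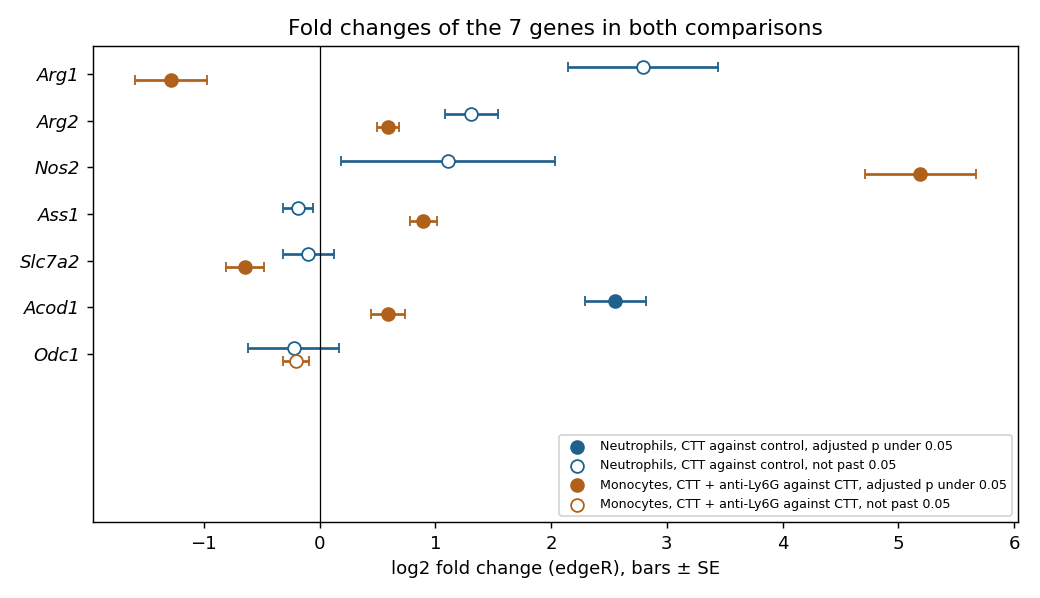
Log2 fold changes of the 7 genes (edgeR, bars ± SE) in neutrophils (CTT against control) and in monocytes (CTT with anti-Ly6G against CTT alone), with filled points past an adjusted p of 0.05. The largest value was that of Nos2 in monocytes (5.19), and Arg1 lay on opposite sides of 0 in the 2 cell types, at 2.80 (not past the threshold) and −1.28.

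Nos2 went from nearly undetected to a low but steady level. It had 4, 5 and 1 counts in the CTT monocyte libraries and 133, 97 and 159 with anti-Ly6G, or 0.103 ± 0.0653 against 3.84 ± 1.03 CPM (SD, n = 3). Every antibody library exceeded every CTT library many times over. The log2 fold change was 5.19 (SE 0.48, edgeR adjusted p = 0.000381). From the summed counts, 10 against 389, the ratio of rates was 37.7, with an exact conditional binomial 95% interval of 20.3 to 79.2 that covers counting error only. The call held in each fit without 1 library, with log2 fold changes of 4.74 to 5.59.

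Ass1, the enzyme that returns citrulline towards arginine, rose beside Nos2. It read 41.1, 31.6 and 35.6 CPM with CTT alone and 76.6, 62.6 and 62.3 CPM with the antibody, with a wide gap between the groups. The means of 36.1 ± 4.76 and 67.2 ± 8.17 CPM gave a 1.86-fold rise (log2 fold change 0.90, SE 0.11, edgeR adjusted p = 0.00158). The transporter gene Slc7a2 fell, from 46.1, 29.5 and 29.1 CPM to 21.9, 22.5 and 22.6 CPM. The antibody libraries were nearly equal and below all CTT libraries, of which replicate 1 was far above the others. Its log2 fold change was −0.64 (SE 0.17, edgeR adjusted p = 0.0338), and the call was lost without anti-Ly6G replicate 1, 2 or 3 (adjusted p = 0.111, 0.0942 and 0.0862).

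The arginase genes moved apart in monocytes. Arg1 read 13.2, 6.94 and 7.82 CPM with CTT alone and 3.10, 5.45 and 2.90 CPM with anti-Ly6G, so the groups did not overlap, with CTT replicate 1 the highest. The fall was 2.43-fold (log2 fold change −1.28, SE 0.31, edgeR adjusted p = 0.0272). It missed the threshold without CTT replicate 3 (adjusted p = 0.0564) and without anti-Ly6G replicate 1 (0.104) or 3 (0.0873), with log2 fold changes of −1.63 to −0.95 over all 6 such fits. Arg2 rose, from 16.3, 15.2 and 17.1 CPM to 22.5, 26.0 and 24.6 CPM. Libraries within each group were close, and the log2 fold change of Arg2 was 0.59 (SE 0.09, edgeR adjusted p = 0.00446). The call of Arg2 was lost in 1 fit over all 12 libraries (adjusted p = 0.113). In the deposited FPKM, which are per gene length, Arg2 exceeded Arg1 by 1.29, 2.29 and 2.28 times with CTT alone and by 7.56, 4.97 and 8.83 times with the antibody.

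Per length, the balance of Arg1 to Nos2 shifted in every monocyte library. The ratio of their FPKM was 308, 131 and 780 with CTT alone and 2.23, 5.82 and 1.77 with anti-Ly6G, and the first set rests on 1 to 5 Nos2 counts per library. Nos2 stayed below Arg1 in all 12 libraries. In neutrophils the ratio was 3.23, 17.0 and 131 in control and 11.2, 12.7 and 138 after CTT, with overlapping groups.

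**Figure D3:**
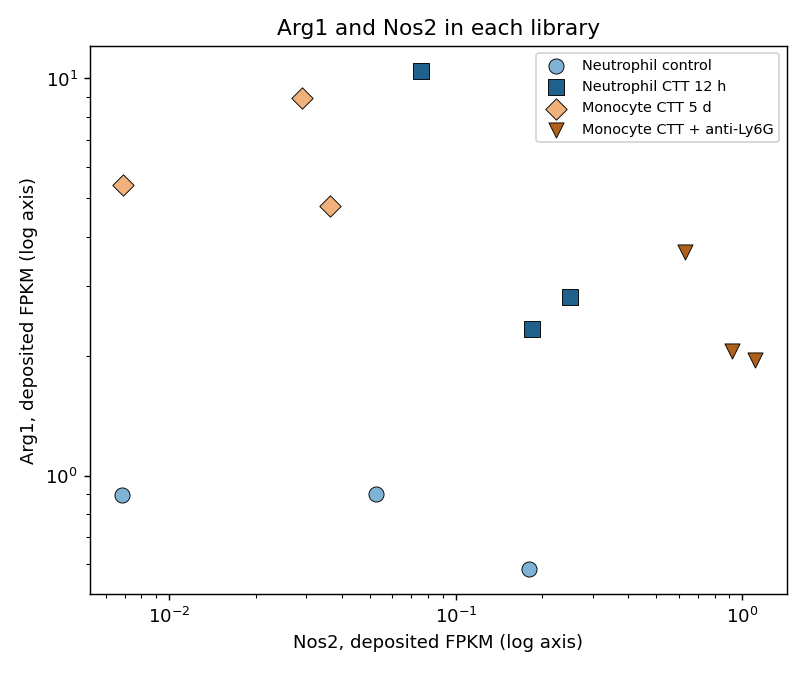
Deposited FPKM of Arg1 against Nos2 (log axes), 1 point per library. Anti-Ly6G monocytes lie at the right (Nos2 0.628 to 1.10 FPKM, Arg1 1.96 to 3.65 FPKM), CTT monocytes at the upper left (Nos2 at most 0.0365 FPKM, Arg1 4.78 to 8.90 FPKM) and control neutrophils at the bottom (Arg1 at most 0.897 FPKM).

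Acod1 rose modestly in monocytes, from 22.6, 27.4 and 24.7 CPM to 36.5, 45.6 and 30.1 CPM. The groups did not overlap, but the antibody libraries spread more than the CTT libraries. The log2 fold change of Acod1 was 0.59 (SE 0.15, edgeR adjusted p = 0.029), and the call was lost without CTT replicate 3 (adjusted p = 0.0973) or anti-Ly6G replicate 1 (0.0813) or 2 (0.0789). Odc1 read 158, 185 and 145 CPM and then 160, 137 and 125 CPM, with overlapping groups (−0.21, SE 0.11, edgeR adjusted p = 0.25).

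Markers of other cell types moved with the monocyte groups too, where 10.2% of all tested genes rose and 5.12% fell. Of the 14 neutrophil markers 12 rose with anti-Ly6G and 0 fell (4929 to 6959 CPM summed with CTT alone, 13739 to 18710 CPM with the antibody, a ratio of means of 2.93). Ly6g, the target of the antibody, was among them, at 13.6 ± 2.26 and 56.1 ± 7.19 CPM (log2 fold change 2.04, SE 0.14, edgeR adjusted p = 0.000106). Of the 7 red pulp macrophage markers 5 fell and 0 rose, from 7088 to 11612 CPM down to 5854 to 6314 CPM summed, and CTT replicate 1, highest in Arg1 and Slc7a2, was also the highest here. Ccr2, the protein the cells were selected by, rose (edgeR log2 fold change 1.25, SE 0.14, adjusted p = 0.000968). Of 12 cell cycle genes 7 rose and 0 fell. Of 16 erythroid markers 3 fell and 0 rose. The part of these shifts in the values of the 7 members was not tested.

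**Figure D4:**
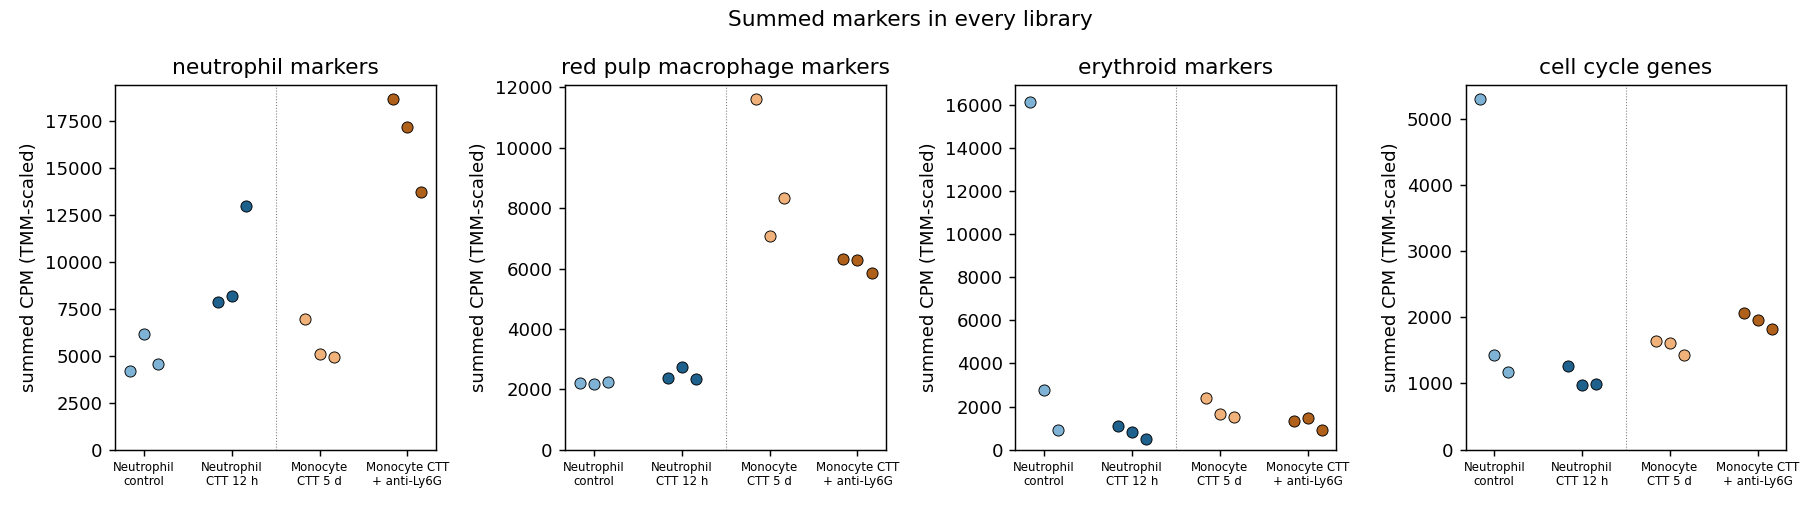
Summed CPM of 4 marker lists in every library (linear axes from 0). Neutrophil markers were higher in the CTT neutrophil and anti-Ly6G monocyte libraries, red pulp macrophage markers were lower with anti-Ly6G, and control replicate 1 of the neutrophils alone held 16126 CPM of erythroid markers.

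Across the 4 groups each member had its own order of levels, and all 7 orders were the same when the 12 libraries were scaled together. The cell types differ in selecting antibody and time, so these levels were not tested against each other. Acod1 was highest in CTT neutrophils, then in control neutrophils (62.0 CPM), anti-Ly6G monocytes (37.4 CPM) and CTT monocytes (24.9 CPM), with no overlap between neighbours. For Slc7a2 the CTT monocytes led (34.9 CPM), followed by the anti-Ly6G monocytes (22.3 CPM), both clear of the neutrophil groups (6.29 and 5.88 CPM), which overlapped. Odc1 was likewise split by cell type but the other way, with 384 and 329 CPM in control and CTT neutrophils above 162 and 141 CPM in monocytes, and overlap within each cell type.

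Arg1 had its highest mean in CTT monocytes (9.32 CPM), overlapping CTT neutrophils (7.96 CPM), which also overlapped anti-Ly6G monocytes (3.82 CPM). CTT neutrophil replicates 1 and 2 (4.14 and 3.50 CPM) lay below every CTT monocyte library (6.94 to 13.2 CPM). Replicate 3 (16.2 CPM) lay above them all. Control neutrophils were below all of these groups (1.14 CPM). Arg2 had its highest mean in anti-Ly6G monocytes (24.4 CPM), overlapping CTT neutrophils (20.5 CPM), with CTT monocytes (16.2 CPM) and control neutrophils (8.26 CPM) below. For Ass1 the anti-Ly6G monocytes (67.2 CPM) were clear of control neutrophils (50.8 CPM), and each of the lower neighbours overlapped (44.5 CPM in CTT neutrophils, 36.1 CPM in CTT monocytes). Nos2 exceeded 1.1 CPM only in the anti-Ly6G monocytes, and the other 3 groups overlapped in turn at means of 0.103 to 0.739 CPM.

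Compared per length within a group, Nos2 was the lowest of the 7 members in all 4 groups, at 0.0241 to 0.885 FPKM. Odc1 had the highest mean in 3 groups (149, 62.8 and 53.2 FPKM in control neutrophils, CTT monocytes and anti-Ly6G monocytes). In CTT neutrophils the mean of Acod1 was first (137 ± 43.2 FPKM), with Odc1 at 123 ± 24.8 FPKM within its spread. Arg2 was above Arg1 in each group by mean, most closely in CTT monocytes (11.5 against 6.35 FPKM).

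Other genes of these pathways were read from 7 lists holding 94 genes, of which 88 were tested in neutrophils and 87 in monocytes. In neutrophils 3 rose and 0 fell, where 0.567% and 0% of all tested genes did. The median log2 fold change was −0.09 against −0.02 over all genes. By DESeq2 8 rose and 0 fell, and 4 fell at an unadjusted edgeR p under 0.05. Over all genes DESeq2 called 441 higher and 106 lower of 13542, and 749 of 13058 fell at that unadjusted p. In monocytes 19 rose and 2 fell, where 10.2% and 5.12% of all tested genes did. The median there was 0.09 against −0.0044 over all genes. The lists overlap in no gene with the members, and they are described by counts alone.

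The genes around arginine and ornithine changed little. Of the arginine supply and transport list 0 of 8 passed in neutrophils (0 at an unadjusted edgeR p under 0.05, 0 by DESeq2), where Slc3a2, the heavy chain of amino acid transporters, had the smallest p (log2 fold change 0.30, edgeR adjusted p = 0.391). In monocytes 0 of 9 passed (1 up and 1 down unadjusted in edgeR, 0 by DESeq2), with the creatine synthesis gene Gatm at 0.26 (adjusted p = 0.116). Of 7 genes that turn ornithine into proline and glutamate, 0 passed in either cell type in edgeR (1 fell unadjusted in each, and DESeq2 called 0 in neutrophils and 1 that fell in monocytes). The smallest p there belonged to Aldh18a1 in neutrophils (−0.76, edgeR adjusted p = 0.348) and to glutamine synthetase, Glul, in monocytes (−0.41, adjusted p = 0.0647).

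Polyamine genes passed only in the monocyte test, where 3 of 13 rose and 0 fell (1 fell at an unadjusted edgeR p under 0.05, 0 by DESeq2). These were Oaz2, an antizyme that restrains ornithine decarboxylase (log2 fold change 0.51, SE 0.08, edgeR adjusted p = 0.00352), Smox, which oxidizes spermine (0.39, SE 0.10, adjusted p = 0.03), and Amd1, which makes the aminopropyl donor (0.29, SE 0.06, adjusted p = 0.0149). Reads of Amd1 may be shared with its near copy Amd2. In neutrophils 0 of 13 passed (1 rose unadjusted in edgeR, 0 by DESeq2), with Sat1, which acetylates polyamines, at 0.50 (edgeR adjusted p = 0.251). Of all tested genes 10.2% rose and 5.12% fell in monocytes, and 0.567% and 0% in neutrophils. Whether the cell types differed in this list was not tested.

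Of the nitric oxide list, Gch1, the first enzyme in making the Nos2 cofactor tetrahydrobiopterin, rose in monocytes, from 17.5 ± 0.393 to 21.8 ± 0.972 CPM (log2 fold change 0.32, SE 0.08, edgeR adjusted p = 0.037). It was the only 1 of 9 tested that passed in edgeR, and DESeq2 called 1 that rose and 1 that fell. Of all tested genes in monocytes 10.2% rose and 5.12% fell, so 1 of 9 lies near the background. In neutrophils 0 of 11 passed (2 fell unadjusted in edgeR, 0 by DESeq2), and Ddah2, which clears methylarginines that block nitric oxide synthases, stood at −0.66 (edgeR adjusted p = 0.35).

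Of the citrate cycle genes around cis-aconitate 3 passed in monocytes. There Mdh2, malate dehydrogenase (log2 fold change 0.21, edgeR adjusted p = 0.03), and Sdhb, a subunit of the itaconate target succinate dehydrogenase (0.23, adjusted p = 0.0322), rose. Suclg2, a subunit of succinyl-CoA ligase, fell (−0.32, edgeR adjusted p = 0.0177). Of all tested genes in monocytes 10.2% rose and 5.12% fell, so 2 and 1 of 21 lie near the background. In neutrophils 0 of 21 passed (1 fell unadjusted in edgeR, 0 by DESeq2), and the median was −0.28. Of the 21, 9 had all CTT libraries below all control libraries and 0 had all above. Over all tested genes 11.0% and 13.6% did. Control replicate 1, with its high cell cycle and erythroid sums, is among those controls, and its part in these values was not tested. A gene counted here also had both other control libraries above all CTT libraries.

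**Figure D5:**
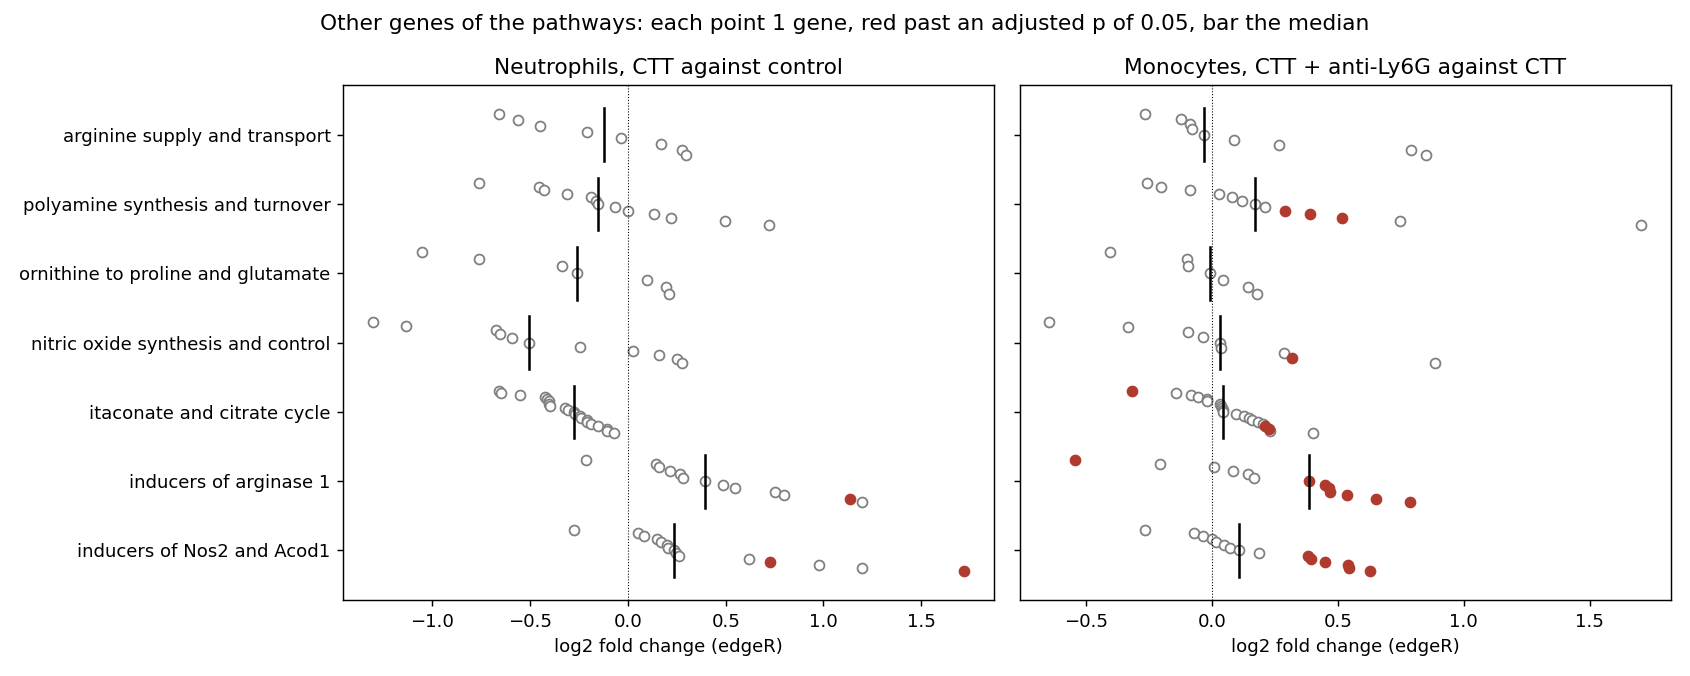
Log2 fold changes (edgeR) of the other pathway genes by list, 1 point per gene, red past an adjusted p of 0.05 and a bar at the median. The called genes of monocytes lie mostly in the 2 lists of inducers, whose medians were 0.38 and 0.11.

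Receptors and transcription factors known to induce these enzymes held most of the called genes of these lists. The lists were chosen with earlier results of these data known, so the shares called only describe. Summed neutrophil markers were also higher in both comparisons, and the part of the marker shifts in the inducer values was not tested. Of all tested genes 10.2% rose and 5.12% fell in monocytes, and 0.567% and 0% in neutrophils. Of 13 inducers of arginase 1, 7 rose and 1 fell in monocytes (median 0.38), although Arg1 itself fell. Those with the smallest p were Csf2rb, the shared beta chain of the GM-CSF and interleukin-3 receptors (log2 fold change 0.79, SE 0.07, edgeR adjusted p = 0.000381), Stat3 (0.38, adjusted p = 0.00207), the transcription factor gene Cebpb (0.65, adjusted p = 0.00208) and the interleukin-4 receptor gene Il4ra (0.46, adjusted p = 0.00615). Reads of Csf2rb may be shared with its near copy Csf2rb2. The 1 that fell was Pparg, a nuclear receptor of lipid metabolism, named here after its value was seen (−0.54, edgeR adjusted p = 0.043). In neutrophils 1 of 13 rose, Il13ra1, a chain of the interleukin-13 receptor, from 46.0 ± 4.82 to 101 ± 8.91 CPM (1.14, SE 0.13, edgeR adjusted p = 0.0296), and the median was 0.40. DESeq2 called 4 of the 13 higher, and 1 fit over all 12 libraries called 5. Over all genes DESeq2 called 441 of 13542 higher in neutrophils, and the fit over 12 libraries called 535 higher and 102 lower of 13732.

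The shares of all tested genes that rose were 10.2% in monocytes and 0.567% in neutrophils, and 5.12% and 0% fell. Of 15 inducers of Nos2 and Acod1, 6 rose in monocytes and 0 fell (1 fell at an unadjusted edgeR p under 0.05, 0 by DESeq2). They were led by Myd88, the adaptor of toll-like receptors (log2 fold change 0.63, SE 0.05, edgeR adjusted p = 0.000296), Ifngr2, a chain of the interferon-gamma receptor (0.38, adjusted p = 0.00439), the lipopolysaccharide coreceptor gene Cd14 (0.54, adjusted p = 0.00881) and the TNF receptor gene Tnfrsf1a (0.55, adjusted p = 0.0126). In neutrophils 2 of 15 rose, Cd14, from 73.3 ± 8.23 to 242 ± 31.3 CPM (1.72, SE 0.15, edgeR adjusted p = 0.0132), and Tnfrsf1a (0.73, SE 0.10, adjusted p = 0.0417). DESeq2 called 4 of the 15 higher, where it called 441 of 13542 genes higher. The fit over 12 libraries called 4, where it called 535 higher and 102 lower of 13732 genes.

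Genes of like pattern were ranked by the smaller of 2 Pearson correlations of log2 CPM with a member, over the 6 neutrophil and over the 6 monocyte libraries, among 11598 protein coding genes. The points share their libraries and fall into treatment groups, so these values only describe. For Acod1 the closest were Il1r2, the interleukin-1 decoy receptor (r = 0.974 in neutrophils and 0.983 in monocytes), Trem1 (0.993 and 0.968) and C5ar1 (0.994 and 0.959). Arg2 was matched most closely by Ifitm1 (0.985 and 0.974), Msrb1 (0.988 and 0.968) and Ppp1r3b (0.968 and 0.975). Near Arg1 were Hcar2, a receptor for hydroxy-carboxylic acids (0.966 and 0.986), Sqstm1, which encodes the autophagy receptor p62 (0.986 and 0.956), and Zscan18 (0.951 and 0.928). The 3 genes nearest to Acod1, Arg1 and Arg2 were different genes for each member, which with 3 taken from 11598 does not show separate patterns. Acod1 itself correlated with Arg1 at 0.933 in neutrophils and −0.613 in monocytes, and with Arg2 at 0.902 and 0.822. Between Arg1 and Arg2 the values were 0.699 and −0.746.

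For the remaining members the leading values were lower or rested on smaller changes. Ass1 was followed by Zbtb34 (0.960 and 0.944), Pxmp4 (0.973 and 0.923) and Acly, ATP citrate lyase (0.921 and 0.915). Slc7a2 had Abl1 (0.942 and 0.933), Lclat1 (0.902 and 0.897) and Tspan3 (0.890 and 0.957). For Nos2, which has few counts in 9 of the 12 libraries, the list held Cdkn2d (0.895 and 0.947) and Nfe2l2 (0.894 and 0.923), and for Odc1 it was Abce1, Rgcc and Kpna1, where the smaller of the 2 correlations was 0.861 to 0.865.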

How the data were processed

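RNA-seq counts of 12 libraries in 4 groups of 3 were used, grouped by their titles. The authors deposited raw read counts per gene and FPKM values, the latter equal to count per gene length and library total. The submitters' processing notes name HISAT2, HTSeq and the mm10 build. Versions, annotation and strandedness were not given in the sources used here, so overlapping genes may exchange reads. Each table was fitted whole in R 4.3.3 with edgeR 4.0.16 (filterByExpr, TMM, quasi-likelihood F test, two-sided, Benjamini-Hochberg over all tested genes, threshold 0.05) and checked on simulated data. SE is the absolute log2 fold change over the square root of F. DESeq2 1.42.0, limma 3.58.1 and other settings were alternatives. Correlations used log2(CPM + 0.5) and genes with a mean of at least 1 CPM. Every library pair differed by more than counting error (lowest chi-square per degree of freedom 12.6). Value columns left out numbered 0. Loci and promoters came from RefSeq by Entrez ID. Up to 4 called genes of each list are named, or the 1 with the smallest p. Members and lists were chosen with earlier results of these data known. Of the genes that the rule on like patterns named, 1 is not reported here.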

Additional observations from a re-analysis of the deposited data

How the results depend on the processing

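Of the 7 members, 1 passed in neutrophils and 6 in monocytes, among 74 and 2035 genes in all. In neutrophils the counts of members and genes were 3 and 547 with DESeq2, 3 and 637 in 1 fit over the 12 libraries, 0 and 8 on log2(FPKM + 1), and 27 genes on log2(FPKM + 0.1). Leaving out 1 library gave 0 to 2 members and 0 to 288 genes, the highest without control replicate 1 and 0 without any other. In monocytes they were 3 and 1205 on log2(FPKM + 1), 3 and 1279 on log2(FPKM + 0.1), and 2 and 500 in the fit over 12 libraries, where Nos2 and Ass1 passed and Arg1, Arg2, Slc7a2 and Acod1 did not. Leaving out 1 library gave 3 to 6 members and 938 to 2855 genes, the highest without CTT replicate 1. Without anti-Ly6G replicate 1 it was 938 genes, without replicate 2 or 3 of that group 1188 and 1210, and 984 without CTT replicate 3. Upper quartile scaling called 1069 genes higher and 1030 lower in monocytes, against 1354 and 681, with the same 6 members. The cause of these differences was not tested.

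With the replicate number as a block, 0 members and 5 genes passed in neutrophils (Acod1 2.51, edgeR adjusted p = 0.051; 0 in both lists of inducers) and 6 members and 2594 genes in monocytes. Deviations of same-numbered libraries correlated at 0.24, 0.00021 and 0.22 in neutrophils and 0.13, −0.046 and 0.18 in monocytes. Those of different numbers ranged from −0.25 to 0.20 and from −0.19 to 0.065. In both cell types, replicates 1 and 3 of the reference group correlated best with their own number, and replicate 2 did not. With 3 libraries per group these values cannot decide whether the numbers are pairs. The main tests left them unpaired.

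Direction changed for Odc1 in neutrophils without control replicate 1 (−0.47 to 0.39 over the fits without 1 library) and for Slc7a2 in neutrophils without control replicate 2 (0.0044) or CTT replicate 2 (−0.22 to 0.012). All other member fold changes kept their sign in the alternatives run. A pseudocount shrinks low genes: Nos2 in monocytes was 0.87 on log2(FPKM + 1) and 2.97 on log2(FPKM + 0.1). Nos2 gave no value in neutrophils at a minimum of 1 CPM in 3 libraries, nor in either cell type at a mean of 1 FPKM. Depth limits Nos2, with 1 to 36 counts in the 9 libraries outside the anti-Ly6G group.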
